A study of Mus musculus with 60 samples.

Results

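The Period genes *Per1*, *Per2* and *Per3* were followed in the hippocampus of mice given an NMDA receptor antagonist. Every probe that the array annotation assigned to the 3 genes was taken, which gave 8 probes of 45281 and 3 genes of 19057. The platform was the Illumina MouseWG-6 v2 BeadChip, with 60 arrays that fell into 20 groups of 3. The mice were male C57BL/6J animals aged 8 to 10 weeks, and each array held RNA pooled from 2 mice. Single i.p. injections were given of ketamine (20 mg/kg), memantine (15 mg/kg), phencyclidine (PCP, 5 mg/kg) or saline, and naive mice were not injected. Separate groups of each of the 5 conditions were killed at 1, 2, 4 and 8 h, so that time after injection and time of day cannot be told apart.

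PER proteins are the repressors of the circadian clock. They build up in a complex with cryptochromes, enter the nucleus and inhibit CLOCK and BMAL1, the activators that drive their own transcription through E-box sequences. *Per1* is also a gene of acute responses, since its promoter region can be activated by CREB after neuronal signaling and by the glucocorticoid receptor after stress hormone release. *Per2* takes part in the same core loop, while *Per3* is controlled by the clock output factors that bind D-box sequences and is less needed for rhythm in mice.

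The sequences before the start sites of these genes are shown because the elements named above can be looked for in them. They come from RefSeq (GRCm38.p6) and cover the 250 bases before each listed start, given 5′ to 3′ on the strand of the gene. *Per1* had 2 listed starts and *Per3* had 1, and *Per2* had no entry. The *Per1* windows lie inside the gene span given below, so the bases before that span were not searched. The *Per3* window overlaps the end of its gene span. Capitals mark an E-box (CACGTG), a short cAMP response element (TGACG) or a D-box (TTATGTAA), searched on both strands.
Per1 first start, chr11:69098699-69098948, plus strand: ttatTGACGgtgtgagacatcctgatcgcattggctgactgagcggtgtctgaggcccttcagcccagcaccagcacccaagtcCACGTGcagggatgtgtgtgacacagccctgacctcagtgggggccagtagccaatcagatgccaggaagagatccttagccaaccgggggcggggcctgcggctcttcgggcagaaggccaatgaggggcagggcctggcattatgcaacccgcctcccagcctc
Per1 second start, chr11:69099902-69100151, plus strand: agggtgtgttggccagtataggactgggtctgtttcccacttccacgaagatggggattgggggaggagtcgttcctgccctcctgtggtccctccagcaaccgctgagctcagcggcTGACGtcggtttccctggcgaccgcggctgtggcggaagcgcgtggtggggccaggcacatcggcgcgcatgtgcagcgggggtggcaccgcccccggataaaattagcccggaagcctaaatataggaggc
Per3, chr4:151044666-151044915, minus strand: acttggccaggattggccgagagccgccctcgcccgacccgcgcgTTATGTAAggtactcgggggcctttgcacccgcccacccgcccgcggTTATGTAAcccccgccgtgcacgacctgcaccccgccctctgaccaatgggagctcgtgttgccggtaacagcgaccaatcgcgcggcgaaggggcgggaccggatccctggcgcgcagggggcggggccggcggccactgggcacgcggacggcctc
The window before the first *Per1* start held 1 E-box at position -166 from the start, a motif found in 6.02% of the 32817 windows of the same length. Each *Per1* window held 1 short cAMP response element, at -246 and at -132, and 17.7% of all windows held at least 1. The *Per3* window held 2 D-boxes, at -205 and -158, and 0.817% of all windows held any. The full cAMP response element (TGACGTCA, 1.55% of windows), the E-prime box (CACGTT, 3.85%) and the glucocorticoid response element (its palindromic consensus, 0.00914%) were not among the letters of these 3 windows. Such matches describe letters and were not tested for binding.

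Levels are log2 values of background-corrected, quantile normalized intensities. *Per1* (GRCm38.p6 chromosome 11, 69095108 to 69109965) had 3 probes with means over the 60 arrays of 10.89, 9.62 and 6.83. *Per2* (chromosome 1, 91415977 to 91459351) had 3 probes with means of 10.85, 10.21 and 7.18. *Per3* (chromosome 4, 150997018 to 151044707) had 2 probes with means of 7.82 and 6.83. By mean level, the brightest *Per1* probe exceeded 92.6% of all probes, the brightest *Per2* probe 92.4% and the brighter *Per3* probe 68.3%. The dimmest *Per1* probe exceeded 45.0% and the dimmer *Per3* probe 45.2%. The deposited table held no detection p-values, so whether a dim probe was above background could not be given. A level cannot be compared between probes, and the brightest probe of a gene is the one described unless another is named.

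Arrays differed in ways that the groups do not explain. The median intensity of an array lay between 138 and 1144, and 7 arrays on 2 of the 10 slides had a high background, with 1 from memantine, 3 from PCP, 2 from saline and 1 from naive mice. The second ketamine array at 2 h had a mean of 11 striatum markers of 10.98 (next array 8.48) and the lowest mean of 9 hippocampus markers, 10.20. The second memantine array at 1 h had the highest mean of 9 thalamus markers, 9.34 (next array 8.65). On those 2 arrays *Per1* stood at 10.72 and 10.95, within the range of all 60 arrays, 10.35 to 11.50. *Ttr*, the most abundant marker of the choroid plexus, ranged from 11.80 to 15.91 with ketamine, 11.57 to 15.86 with memantine, 10.99 to 15.81 with PCP, 15.05 to 15.94 with saline and 11.08 to 15.83 in naive mice. Over the 60 arrays the correlation of a Period probe with *Ttr* lay between -0.13 and 0.21. In whole hippocampus, a change in the number of cells of a type and a change of RNA per cell cannot be told apart.

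*Per1* was higher in memantine-treated mice than in naive mice. Over the 12 memantine arrays its lowest, median and highest levels were 10.89, 11.08 and 11.50, against 10.35, 10.71 and 10.83 over the 12 naive arrays. The 12 memantine arrays all lay above all 12 naive arrays, whatever their time. This held for 1 of 45281 probes on the array (0.00221%), the *Per1* probe itself, which was singled out after its values were seen. A drug against naive mice was not among the planned main comparisons. The planned drug comparisons, given below, were with saline or between drugs, and *Per1* passed in none of them. Averaged over the 4 times, the difference between memantine and naive mice was 0.47 (95% interval 0.32 to 0.62, adjusted p = 0.000224 from limma), a 1.38-fold higher level. In that comparison 40 probes (0.0883%) passed an adjusted p of 0.05 and 39 of them were higher (0.0861%).

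The second *Per1* probe also passed in this comparison. Its lowest, median and highest levels were 9.61, 9.76 and 10.17 with memantine, against 9.09, 9.43 and 9.73 in naive mice, and 9 of the 12 memantine arrays lay above the highest naive array. Its difference was 0.35 (interval 0.21 to 0.49, adjusted p = 0.0106 from limma). The call was lost without the 7 arrays of high background (0.32, adjusted p = 0.0634) and without the second naive array at 4 h (0.32, adjusted p = 0.0535), also from limma. The dimmest *Per1* probe differed by 0.03 (interval -0.17 to 0.23).

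Naive mice differ from memantine-treated mice by the injection as well as by the drug. Against naive mice, *Per1* differed by 0.29 with PCP (interval 0.14 to 0.43, adjusted p = 0.447 from limma) and by 0.21 with ketamine (interval 0.06 to 0.36, adjusted p = 0.734). Above the highest naive array lay 10 of the 12 PCP arrays, 7 of the 12 ketamine arrays and 6 of the 12 saline arrays. Saline itself exceeded naive mice by 0.22 on average over the times (interval 0.07 to 0.36, unadjusted p = 0.00534, adjusted p = 1.00 from limma). None of these 3 comparisons with naive mice passed for *Per1*.

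**Figure D1:**
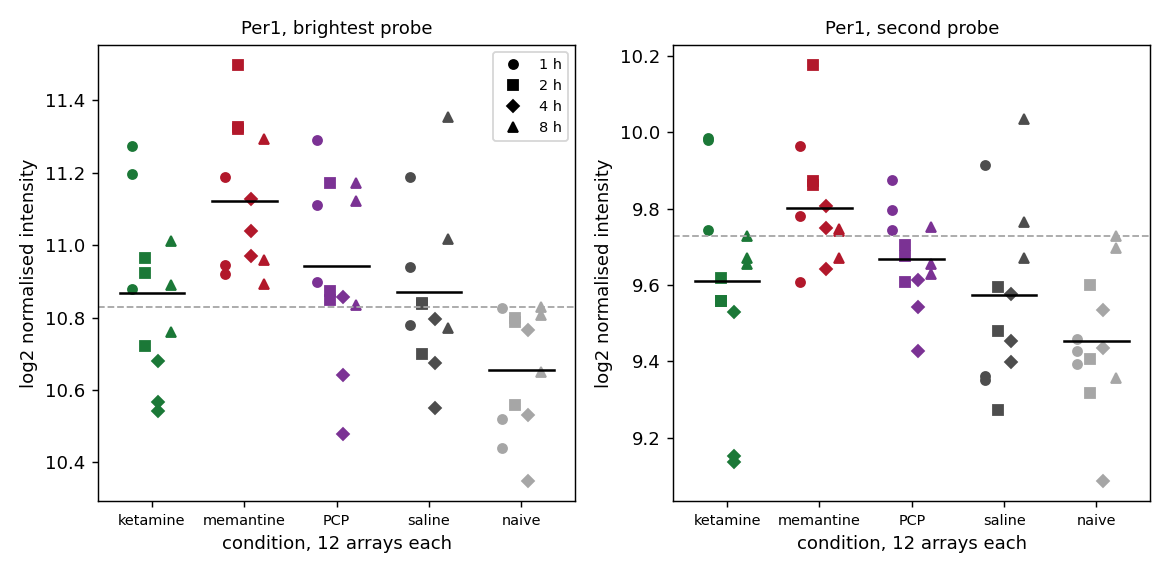
*Per1* on 12 arrays per condition for the brightest and the second probe, as log2 normalized intensity. Marker shapes give the time, black lines the mean of a condition and the dashed line the highest naive array. On the left, all 12 memantine arrays lie above the dashed line, and 10 PCP, 7 ketamine and 6 saline arrays do.

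Against saline of the same time, a comparison of injected mice with injected mice, *Per1* stood highest at 2 h after memantine but did not pass. It was at 11.50, 11.33 and 11.32 with memantine, against 10.70, 10.84 and 10.84 with saline. The 3 memantine arrays lay above the 3 saline arrays, as they did for 6.42% of all probes. The difference was 0.59 (interval 0.29 to 0.89, unadjusted p = 0.000226, adjusted p = 0.107 from limma), a 1.50-fold ratio. At this time 25 probes (0.0552%) passed an adjusted p of 0.05, and 10.6% of probes had an unadjusted p under 0.05.

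The second *Per1* probe gave 10.17, 9.86 and 9.87 with memantine at 2 h, against 9.60, 9.27 and 9.48 with saline, again without overlap. It differed by 0.52 (interval 0.25 to 0.80, adjusted p = 0.128 from limma). Without the first saline array at 2 h this difference was 0.59 with an adjusted p = 0.0417 from limma, and the count of all probes past the threshold was 459 in place of 25. Without the first memantine array at 2 h the count was 11.

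At 4 h *Per1* was at 11.04, 11.13 and 10.97 with memantine, against 10.55, 10.68 and 10.80 with saline. The groups did not overlap, which 3.97% of all probes also showed in this direction. The difference was 0.37 (interval 0.08 to 0.67, adjusted p = 1.00 from limma). At 1 h the memantine arrays, at 11.19, 10.95 and 10.92, overlapped those of saline, at 11.19, 10.94 and 10.78, and the difference was 0.05 (interval -0.25 to 0.34). At 8 h the memantine arrays stood at 10.96, 11.29 and 10.89 and the saline arrays at 10.77, 11.35 and 11.02, the widest spread of any *Per1* group, with a difference of 0.00029 (interval -0.30 to 0.30).

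Averaged over the 4 times, memantine exceeded saline by 0.25 for *Per1* (interval 0.09 to 0.42, unadjusted p = 0.00458, adjusted p = 1.00 from limma) and by 0.23 for the second probe (interval 0.06 to 0.40). Of all probes, 11 (0.0243%) passed in that comparison and 3.48% had an unadjusted p under 0.05. Arrays of one slide deviated together from their group means. When each array was taken as its deviation from the mean of its time and compared within its slide, memantine exceeded saline on 9 of the 10 slides, with a median of 0.31 and a range from -0.07 to 0.59. *Per1* exceeded saline on 7 slides with ketamine (median 0.09) and on 7 with PCP (median 0.12). The brightest *Per2* probe did so on 9 slides with PCP, and the second *Per2* probe on 4 (median -0.05). These are the same arrays arranged by slide, and the share over all probes was not computed.

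**Figure D2:**
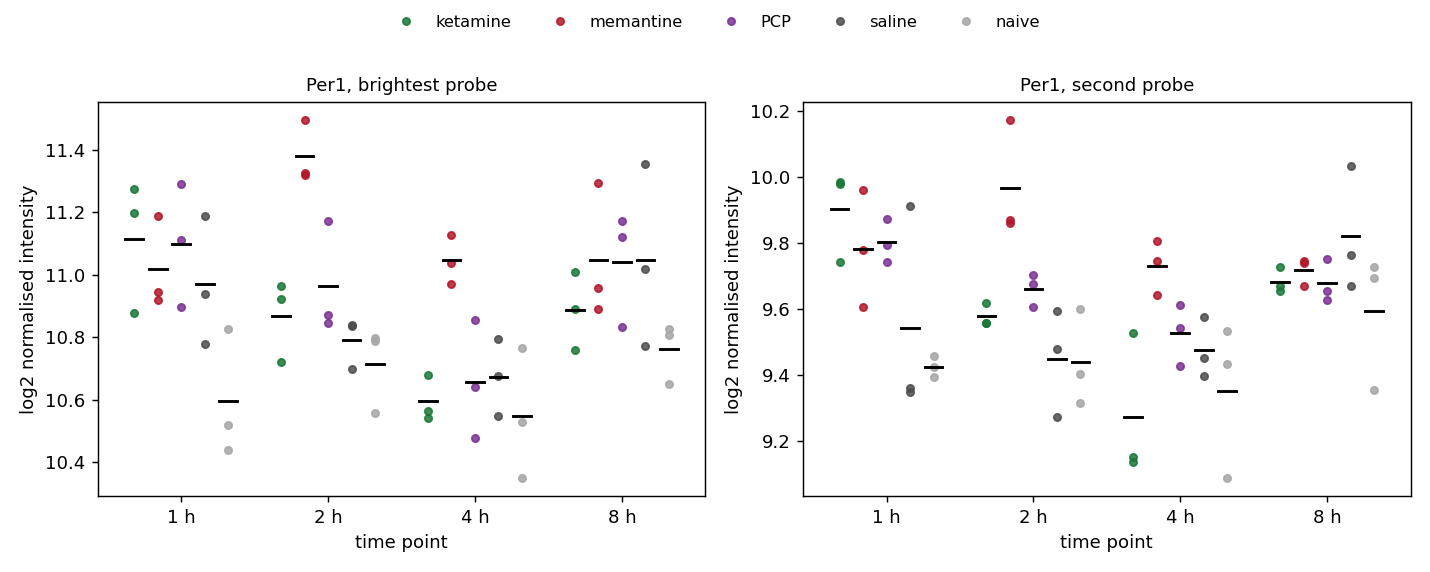
*Per1* by time and condition, as log2 normalized intensity, for the brightest probe (left) and the second probe (right). Points are single arrays of RNA pooled from 2 mice and black lines are means of 3 arrays. At 2 h the memantine arrays of the brightest probe lie between 11.32 and 11.50 and the saline arrays between 10.70 and 10.84.

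With ketamine and PCP, the *Per1* differences from saline at 2 and 4 h were closer to 0 than with memantine, and at 1 h they were not. Ketamine arrays stood at 10.88, 11.20 and 11.27 at 1 h, against 11.19, 10.94 and 10.78 for saline, a difference of 0.15 (interval -0.15 to 0.44). The groups overlapped. The second probe gave 9.74, 9.98 and 9.99 with ketamine at 1 h, against 9.91, 9.36 and 9.35 with saline, and differed by 0.36 (unadjusted p = 0.0113, adjusted p = 1.00 from limma). At 1 h PCP differed from saline by 0.13 for *Per1* and by 0.26 for the second probe, beside 0.05 and 0.24 with memantine. At 8 h ketamine differed by -0.16 for *Per1*. With PCP the largest difference of *Per1* from saline was at 2 h. There PCP arrays stood at 11.17, 10.87 and 10.85 and saline arrays at 10.70, 10.84 and 10.84, with a difference of 0.17 (interval -0.13 to 0.47). Averaged over the times, *Per1* differed from saline by -0.0033 with ketamine and by 0.07 with PCP, and the second probe by 0.04 and 0.10.

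Set beside the other drugs at the same time, *Per1* with memantine exceeded ketamine by 0.51 and PCP by 0.42 at 2 h, and ketamine by 0.45 and PCP by 0.39 at 4 h. In all 4 of these comparisons the memantine arrays lay above those of the other drug, as did 4.44%, 3.94%, 3.26% and 4.27% of all probes. Their unadjusted p-values were 0.00114, 0.00686, 0.00375 and 0.0115, and their adjusted p-values from limma were all 1.00 to 2 decimals. The doses of the drugs differed, so these are not comparisons at matched doses.

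**Figure D3:**
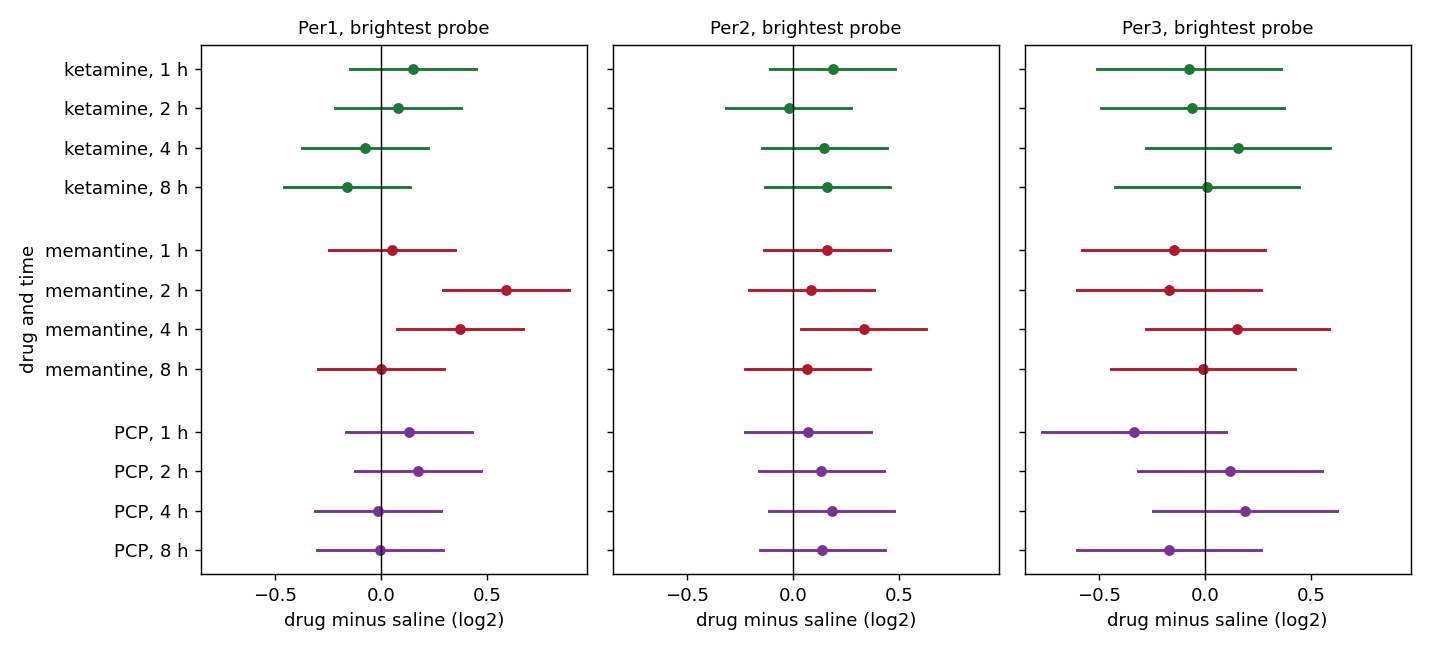
Drug minus saline at each time for the brightest probe of each Period gene, on the log2 scale. Points are differences between means of 3 arrays and lines are 95% intervals from limma. The intervals of *Per1* at 2 and 4 h after memantine and of *Per2* at 4 h after memantine lie above 0, and the other intervals hold 0.

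Over time, *Per1* was lowest at 4 h in 4 of the 5 conditions. The exception was memantine, which was lowest at 1 h, at a mean of 11.02, beside 11.05 at 4 h and 11.05 at 8 h. Ketamine arrays stood at 10.54, 10.57 and 10.68 at 4 h, against 10.88, 11.20 and 11.27 at 1 h. The 4 h arrays lay below all 1 h arrays, as for 4.42% of all probes. The difference was -0.52 for this probe (unadjusted p = 0.00095) and -0.63 for the second probe (interval -0.91 to -0.36, adjusted p = 0.0977 from limma). The second probe was lowest at 4 h in 3 of the 5 conditions, with saline lowest at 2 h and memantine at 8 h.

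With PCP, *Per1* stood at 10.86, 10.48 and 10.64 at 4 h, against 11.29, 11.11 and 10.90 at 1 h. The groups did not overlap, as for 4.22% of all probes. The difference was -0.44 (unadjusted p = 0.00435, adjusted p = 0.774 from limma). Over saline and the 3 drugs together, the difference of *Per1* from 1 h was -0.05 for 2 h, -0.31 for 4 h and -0.04 for 8 h, each with a standard error of 0.07. The test of the time factor gave an unadjusted p = 0.00067 and an adjusted p = 0.153 from limma, where 117 probes (0.258%) passed. Naive mice had *Per1* means of 10.60, 10.72, 10.55 and 10.76 at 1, 2, 4 and 8 h.

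The test of whether the course differed between saline and the drugs gave no call for any probe on the array, with 2.76% of probes at an unadjusted p under 0.05 from limma. Among the Period probes, the second *Per1* probe had an unadjusted p = 0.0174 and the dimmest *Per2* probe an unadjusted p = 0.00444, both with an adjusted p = 1.00. The test of the drug factor gave an unadjusted p = 0.00413 for *Per1* (adjusted p = 0.951 from limma), where 9 probes (0.0199%) passed.

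Among the 20 groups, *Per1* ranged over 0.83 between the highest mean, 11.38 at 2 h after memantine, and the lowest, 10.55 in naive mice at 4 h. The highest group stood 0.26 above the next, ketamine at 1 h, which was more than the pooled SD of 3 arrays, 0.17. It was the only one of 19 gaps between neighbours that exceeded that SD. The *Per2* means ranged over 0.53 and the *Per3* means over 0.54, and for neither gene did any gap between neighbours exceed the pooled SD, 0.17 for *Per2* and 0.27 for *Per3*.

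*Per2* was highest at 8 h in all 5 conditions and lowest at 4 h in 4 of them, with memantine lowest at 2 h. In naive mice it stood at 10.95, 11.06 and 11.11 at 8 h, against 10.46, 10.87 and 10.84 at 1 h. The 8 h arrays lay above the 1 h arrays, as for 3.88% of all probes, by a mean of 0.32 (unadjusted p = 0.0353, adjusted p = 0.602 from limma). The second *Per2* probe gave 10.41, 10.38 and 10.47 at 8 h in naive mice, against 9.85, 10.39 and 9.98 at 1 h, a difference of 0.35 (adjusted p = 0.600) in which one 1 h array overlapped. It was highest at 8 h in 3 of the 5 conditions and lowest at 4 h in 4.

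Over saline and the 3 drugs, the difference of *Per2* from 1 h was -0.09 for 2 h, -0.17 for 4 h and 0.12 for 8 h, each with a standard error of 0.07. The time factor had an adjusted p = 0.298 from limma. The differences of the brightest probe from saline were above 0 in 11 of 12 cases and ranged from -0.02 to 0.33. The second *Per2* probe did not share that sign, with 6 of 12 above 0 and a range from -0.25 to 0.26. Averaged over the times, the brightest probe differed by 0.12 with ketamine, 0.16 with memantine and 0.13 with PCP, and the second probe by 0.0036, -0.04 and -0.06. The 12 differences of a probe share 4 saline groups. The largest of the brightest probe was at 4 h after memantine, where arrays stood at 10.70, 10.77 and 11.18, against 10.42, 10.60 and 10.64 with saline. These groups did not overlap, and the adjusted p was 1.00 from limma. The second *Per2* probe differed there by less, with arrays at 10.12, 10.10 and 10.18 with memantine and 10.00, 9.89 and 10.26 with saline, which overlapped.

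The dimmest *Per2* probe gave the largest differences from saline of any Period probe, and it did so at 2 h with every drug. It stood at 7.12, 7.0 and 7.29 with ketamine, 7.26, 7.46 and 7.26 with memantine and 7.41, 7.34 and 7.21 with PCP, against 7.09, 6.41 and 6.33 with saline. The 3 drugs share the saline arrays, of which 2 were low, one of them an array of high background. The memantine and PCP arrays lay above all 3 saline arrays, as did 6.42% and 6.27% of all probes. The differences were 0.53, 0.72 and 0.71, with adjusted p-values of 0.661, 0.185 and 0.350 from limma. Without the first saline array they were 0.96 with memantine (adjusted p = 0.0271 from limma) and 0.95 with PCP (0.0347). The same saline arrays stood 0.50 below naive mice of that time (unadjusted p = 0.0233). The brightest *Per2* probe averaged 10.75 in saline and 10.83 in naive mice at 2 h.

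The brighter *Per3* probe had a larger pooled SD than the brightest *Per1* and *Per2* probes, but it was also dimmer. Over the 60 arrays its SD was 0.26, beside 0.28 for the dimmest *Per2* probe. The *Per3* mean was highest at 8 h in 4 of the 5 conditions. Over saline and the 3 drugs it was 0.30 higher at 8 h than at 1 h (standard error 0.11), with no call. The saline arrays at 8 h stood at 7.99, 7.99 and 8.08, against 7.92, 7.83 and 7.71 at 1 h. These groups did not overlap, as for 5.58% of all probes. Of its 12 differences from saline, 5 were above 0 and 7 below, between -0.34 and 0.19, and all 12 intervals held 0. The lowest was at 1 h after PCP, where arrays stood at 6.83, 7.76 and 7.86, against 7.92, 7.83 and 7.71 with saline. The PCP array at 6.83 was one of high background. The dimmer *Per3* probe differed from saline by 0.18 with ketamine over the 4 times (unadjusted p = 0.0353, adjusted p = 0.755 from limma). That probe was highest at 8 h in 2 of the 5 conditions and lowest at 8 h in naive mice. Over saline and the 3 drugs it was 0.10 higher at 8 h than at 1 h (standard error 0.12).

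**Figure D4:**
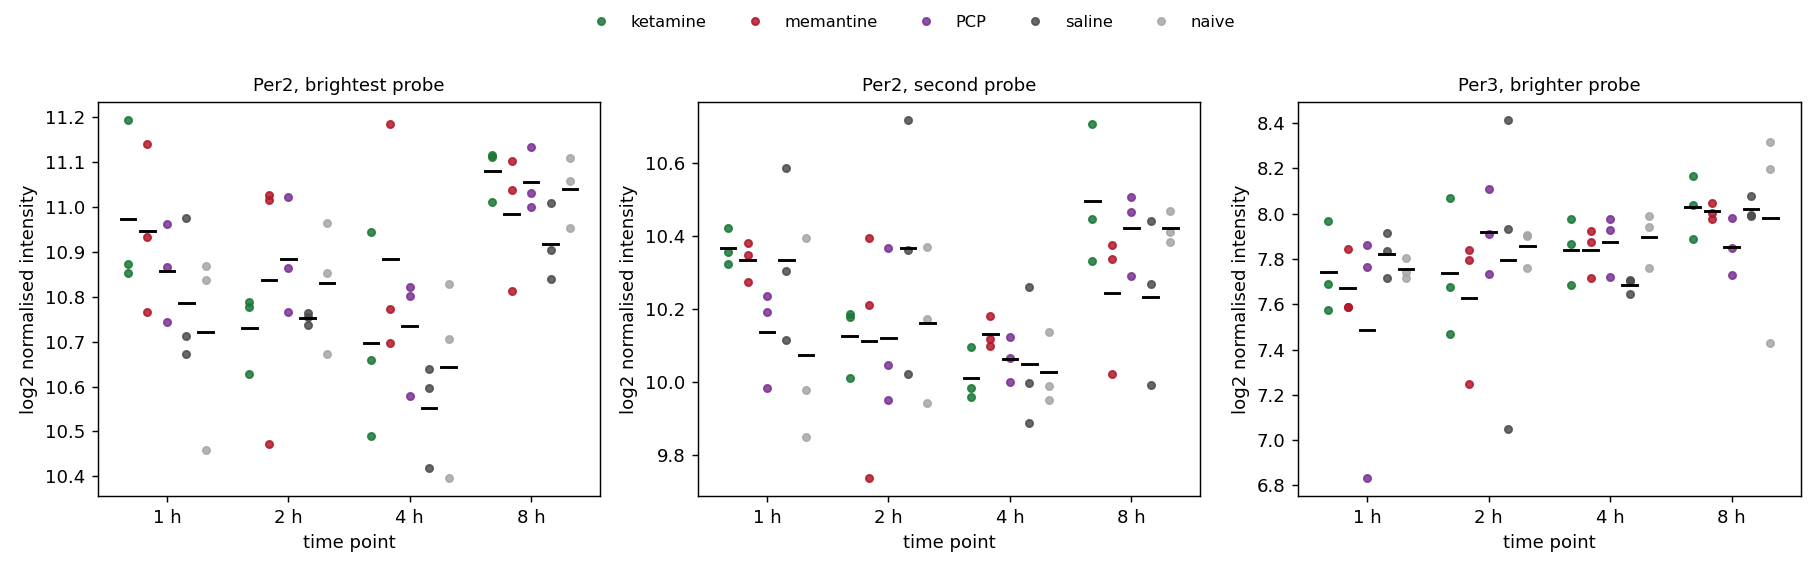
*Per2* (brightest and second probe) and *Per3* (brighter probe) by time and condition, as log2 normalized intensity. Points are single arrays and black lines are means of 3 arrays. The brightest *Per2* probe has its highest mean at 8 h in all 5 conditions, between 10.92 and 11.08.

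In all, the 8 Period probes were tested in 55 comparisons against saline, 1 h, another drug or, for saline, naive mice, a total of 440 tests that share arrays. None passed an adjusted p of 0.05 from limma, and 49 had an unadjusted p under 0.05. Over all probes 4.26% of the tests in these comparisons had such a p. Of those 49, 32 were of *Per1*, 15 of *Per2* and 2 of *Per3*.

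The brightest and second probes of *Per1* and of *Per2* correlated, but their differences from saline agreed less in sign for *Per2*. The brightest and the second *Per1* probe correlated at 0.75 over the 60 arrays and 0.93 over the 20 group means, and their 12 differences from saline had the same sign in 10 cases. For *Per2* these values were 0.69, 0.78 and 7 of 12. The dimmest *Per1* probe correlated with the others at -0.13 and 0.02 over the arrays, and the dimmest *Per2* probe at 0.10 and -0.16. The *Per3* probes correlated at 0.18. The dimmest *Per1* probe and the dimmer *Per3* probe were designed on cDNA clones and the other 6 on RefSeq transcripts. Between genes, *Per1* and *Per2* correlated at 0.31 over the arrays, *Per1* and *Per3* at -0.13, and *Per2* and *Per3* at 0.12. Probes on one array share its RNA and its background, so these values are descriptions.

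**Figure D5:**
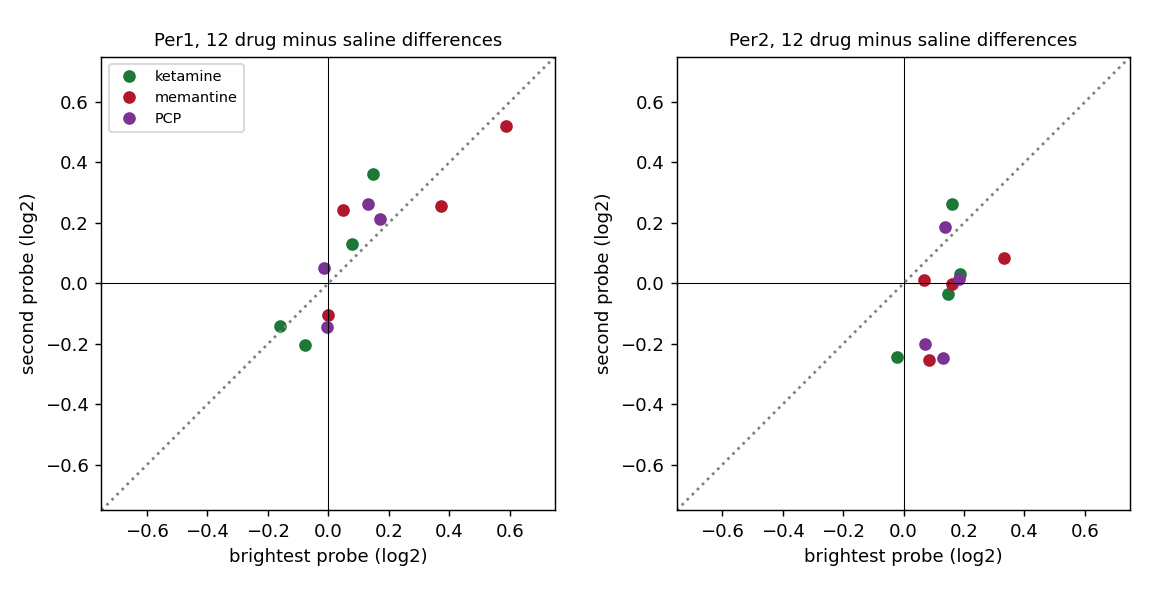
Drug minus saline differences, on the log2 scale, of the brightest probe (x axis) against the second probe (y axis) of *Per1* and *Per2*. Each panel holds 12 points, 4 times for each of 3 drugs, and the dotted line marks equality. The *Per1* points follow the line more closely (r = 0.84) than the *Per2* points (r = 0.56).

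Of 30 other genes of the clock, 26 were measured. Between a drug and saline, averaged over the times, 0 of the 26 passed with ketamine, memantine or PCP (limma). An unadjusted p under 0.05 was found for 0, 1 and 0 of them, beside 6.55%, 3.48% and 3.82% of all probes. The median difference of the 26 genes with memantine was -0.01, beside 0.00 over all probes. Over naive mice, 0 of the 26 passed with memantine, ketamine or PCP, beside 0.0883%, 0.0177% and 0.0133% of all probes. In the test of the time factor over saline and the 3 drugs, 3 of the 26 passed, beside 0.258% of all probes. These 3 genes were higher at 8 h than at 1 h. *Dbp*, a clock output factor that binds D-boxes, was higher by 0.90, *Ciart*, a repressor of CLOCK and BMAL1, by 0.77 and *Usp2*, a deubiquitinase that acts on clock proteins, by 0.43 (adjusted p = 6.4e-10, 0.000147 and 9.87e-05 from limma). The *Per2* difference over the same interval, 0.12, was smaller and did not pass.

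Genes induced by glucocorticoids were taken as a second list because *Per1* responds to the receptor. Part of this list was picked by the study on these arrays, so its counts are not independent evidence. With memantine 8 of its 15 genes rose over saline on average over the times, with a median difference of 0.45 beside 0.00 over all probes. In that comparison 0.0243% of all probes passed. *Plin4*, a coat protein of lipid droplets, rose by 1.09, *Cdkn1a*, a cell cycle inhibitor, by 0.81, *Sgk1*, a kinase induced by glucocorticoids, by 0.73 and *Sult1a1*, a sulfotransferase, by 0.67 (adjusted p = 0.00027, 0.00479, 0.0245 and 0.00183 from limma). With ketamine and with PCP 1 gene of the list rose, and 0.00221% of all probes passed in each of those comparisons. Against naive mice, 9 of the 15 genes rose with memantine, 6 with ketamine and 3 with PCP. Of all probes, 0.0883% passed with memantine, 0.0177% with ketamine and 0.0133% with PCP.

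Genes induced by CREB and neuronal activity were the third list. Over saline on average, 1 of 14 rose with memantine, *Dusp1*, a phosphatase of MAP kinases that also stands in the glucocorticoid list, by 0.51 (adjusted p = 0.0195 from limma), and 0 with ketamine or PCP. Beside these counts, 0.0243% of all probes passed with memantine, 0.00221% with ketamine and 0.00221% with PCP. The median difference of the 14 genes with memantine was 0.46 at 2 h and 0.03 at 4 h. Over naive mice, 1 of the 14 rose with memantine, 0 with ketamine and 0 with PCP. In those comparisons 0.0883%, 0.0177% and 0.0133% of all probes passed. In the test of the time factor 8 of the 14 passed, beside 0.258% of all probes. These 8 genes were lower at 8 h than at 1 h, led by *Fos*, an inducible transcription factor (-1.69). What acted on *Per1* was not tested.

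Over the 20 group means, the 5 genes most like *Per1* among 11958 were *Dusp5*, a phosphatase of ERK kinases (r = 0.86), *Sap30*, a subunit of the Sin3 deacetylase complex (0.85), *Sgk1* (0.85), *Nfkbia*, the inhibitor of NF-kappaB (0.84) and *Ppp1r3g*, a glycogen-targeting subunit of protein phosphatase 1 (0.84). Over the 60 single arrays the same 5 correlated with *Per1* at 0.61 to 0.73. For *Per2* the nearest were *Zfyve21* (0.76), *Fbxo41*, *Ssh2*, *Ccn2* and *Mtmr10* (0.70), with 0.23 to 0.46 over single arrays. For *Per3* they were *Tfrc*, the transferrin receptor (0.87), *Sun1*, *Ivd*, *Bmp4* and *Apmap* (0.74), with 0.21 to 0.31. These genes were ranked on the same arrays, and 20 points share 10 slides.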

How the data were processed

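Hippocampal mRNA abundance levels were measured on 60 arrays, grouped by the condition, time and replicate number in the labels, with doses from the series' design text. The authors deposited linear intensities per probe from BeadStudio, with neither background subtraction nor normalization, and without control probes or detection p-values. The authors also deposited log2 values, described in the methods as background subtracted and quantile normalized, which were used as an alternative. Their mean absolute difference from quantile normalized log2 intensities without background correction was 0.11. This alternative therefore lies close to the one without background correction.

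Intensities were background-corrected by normexp with an offset of 50, quantile normalized and log2-transformed, with no filter (R 4.3.3, limma 3.58.1). Linear models on group means were fitted with moderated variances, over all 60 arrays for single times, courses, saline against naive mice and pairs of drugs, over the 24 arrays of a drug and saline for averages over the times, and over the 48 saline and drug arrays for the factors. Drugs against naive mice, which were not among the planned main comparisons, used all 60. P-values were adjusted by the Benjamini-Hochberg method over all 45281 probes, at a threshold of 0.05. Intervals are 95% intervals from limma. The fits were also run on simulated data with independent noise on each array. Those data held no slide effect, so that check does not cover arrays of one slide deviating together. The number of arrays limits the precision.

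Every probe of the 3 genes was named, together with up to 4 genes of each list with the largest change past the threshold and the 5 genes most like each Period gene. The members and lists were chosen with earlier results of these data known. Symbols are those of the array annotation, where 34885 probes carried 1 symbol, 18 several and 10378 none. Of the 3 genes, 2 matched the RefSeq promoter table. Replicate numbers did not pair the arrays and were not used. The alternatives are given at the end. Other tissues and assays of the study were not analysed here.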

Additional observations from a re-analysis of the deposited data

How the results depend on the processing

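Counts of calls depended on the processing more than the values did. The count of Period tests past an adjusted p of 0.05, each test being 1 probe in 1 comparison, was 0 in the 55 comparisons. It became 3 without background correction and 2 with the authors' log2 values. It was 2 when the dimmer probes were dropped (the brighter 50% kept) and 1 with trended and robust variances. All of these calls were of the brightest or the second *Per1* probe. The count of all probes at 2 h after memantine, 25, became 60, 48, 56 and 38 under the same settings and ranged from 11 to 459 when 1 array of either group was left out. *Per1* at 2 h after memantine over saline passed without background correction (0.56, adjusted p = 0.0471 from limma). Its time factor passed without background correction (4 h minus 1 h -0.29, adjusted p = 0.0370), with the authors' log2 values (-0.28, 0.0449), with the brighter probes (-0.31, 0.0495) and with trended and robust variances (-0.31, 0.0469). With naive mice as the control, its memantine average passed (0.47, 0.000224). That comparison kept its call under 10 further alternatives, with values from 0.43 to 0.49, and without each of its 24 arrays (0.44 to 0.50), alternatives chosen after seeing the data.

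Of the second *Per1* probe, the ketamine difference between 4 h and 1 h passed without background correction (-0.55, adjusted p = 0.0197 from limma), with the authors' values (-0.54, 0.0277), with the brighter probes (-0.63, 0.0246) and without the third ketamine array at 4 h (-0.76, 0.0468). No called value changed sign, while 174 values among the planned and added settings and 365 with 1 array left out changed sign without a call on either side. The other settings were a normexp offset of 16, the slide as a block, choroid plexus markers as a covariate, and leaving out the 7 arrays of high background or the 2 arrays with markers of a neighbouring region, the last chosen after seeing the data.

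Replicate numbers did not pair the arrays, since arrays of different groups with the same number correlated at a mean of -0.01 in their deviations and those with different numbers at 0.01. With the replicate block, *Per1* at 2 h after memantine kept its difference of 0.59 (adjusted p = 0.122 from limma), the count of all probes there was 22, and no call of a Period probe changed. The third, dimmest probes lie near the middle of all signals, and without detection p-values their values carry no check against background.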
